A study of Rattus norvegicus with 192 samples.

Results

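Cholesterol and fatty acid synthesis genes were examined in the nucleus accumbens core, the ventral striatal region whose main cells are medium spiny neurons. The set holds 8 genes, chosen by symbol: Hmgcs1, Sqle, Insig1, Idi1, Fdft1, Srebf2, Lss and Scd2. All 8 were present among the 38354 genes of the table, and all 8 passed the filter on low values (a mean of 1 CPM or more), as did 15427 genes in all. The samples were polyA RNA libraries from outbred heterogeneous stock rats, with no treatment, age or batch in the labels. The table held 159 libraries, each with a rat identifier of its own, and each was taken as 1 rat. Libraries were grouped by the format of the identifier. An all-digit identifier (numeric label) was given to 67, and an identifier starting with E21 (E21 label) to 77. A further 12 had an E21 identifier that the labels mark as a correction by the submitters (corrected E21). The other 3 had another format, and 1 of these 3 is also marked as a correction. Nothing in the labels says what the formats stand for, and p-values measure the spread between these libraries.

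The summed expected count of a library, in units of 1000000, was 24.8 ± 7.17 (SD, n = 159), the lowest total being 14.6 and the highest 61.2. Levels are given as CPM, the expected counts scaled to 1000000 per library. CPM is not scaled to transcript length, so levels were not compared between genes. The tissue was checked by the dopamine receptor gene Drd1, a medium spiny neuron marker. In 147 libraries Drd1 lay between 154 and 441 CPM (56 numeric, 76 E21, 12 corrected E21 and 3 others). In the other 12 it was at or below 20.0 CPM. In 11 of these 12 libraries, 10 with a numeric and 1 with an E21 label, Th, the rate-limiting enzyme of dopamine synthesis, lay between 630 and 2107 CPM, against at most 10.7 CPM in the 147 libraries. These 11 are called midbrain-profile libraries here. The remaining library, numeric replicate 3, had Slc17a7, the vesicular glutamate transporter of cortical projection neurons, at 1993 CPM and Drd1 at 20.0 CPM. The 12 libraries went against their tissue label, and correlations were computed over the 147 others.

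Brain cholesterol is made locally, because lipoprotein cholesterol does not cross the blood-brain barrier. Sterol synthesis is under feedback by SREBP2, the transcription factor encoded by Srebf2, which is carried by SCAP to the Golgi for cleavage when membrane sterol is low and is held in the endoplasmic reticulum by INSIG proteins when sterol is high. Its known targets include most enzymes of the pathway and Insig1 itself. Oligodendrocytes use large amounts of cholesterol and long-chain fatty acids for myelin, of which Mbp, myelin basic protein, is a major protein. Neurons and astrocytes express the same enzymes.

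RefSeq promoter sequence of the assembly GRCr8 was found for 6 of the 8 genes. The 250 bases before the annotated start of 4 of them are shown because Hmgcs1, Insig1 and Idi1 were among the most closely correlated of the set and Srebf2, the gene of the controlling factor, was among the least. Each is written 5′ to 3′ on the strand of its gene, and capitals mark CCAAT or its reverse complement ATTGG.
Hmgcs1, chr2:53382054-53382303, plus strand: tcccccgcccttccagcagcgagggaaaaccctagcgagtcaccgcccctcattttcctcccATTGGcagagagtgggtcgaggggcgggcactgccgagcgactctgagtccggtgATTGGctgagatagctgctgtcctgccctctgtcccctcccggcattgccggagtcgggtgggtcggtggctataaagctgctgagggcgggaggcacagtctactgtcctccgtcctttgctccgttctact
Insig1, chr4:8057770-8058019, minus strand: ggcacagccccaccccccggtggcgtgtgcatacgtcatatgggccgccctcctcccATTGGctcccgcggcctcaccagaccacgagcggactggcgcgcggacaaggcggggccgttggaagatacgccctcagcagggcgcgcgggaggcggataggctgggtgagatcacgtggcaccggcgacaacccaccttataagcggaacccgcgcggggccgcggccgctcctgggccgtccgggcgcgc
Idi1, chr17:66547525-66547774, minus strand: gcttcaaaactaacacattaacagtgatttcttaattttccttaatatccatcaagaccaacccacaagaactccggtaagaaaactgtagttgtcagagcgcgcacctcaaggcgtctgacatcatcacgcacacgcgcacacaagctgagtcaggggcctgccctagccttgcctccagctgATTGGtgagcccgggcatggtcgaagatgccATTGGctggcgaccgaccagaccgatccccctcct
Srebf2, chr7:115543057-115543306, plus strand: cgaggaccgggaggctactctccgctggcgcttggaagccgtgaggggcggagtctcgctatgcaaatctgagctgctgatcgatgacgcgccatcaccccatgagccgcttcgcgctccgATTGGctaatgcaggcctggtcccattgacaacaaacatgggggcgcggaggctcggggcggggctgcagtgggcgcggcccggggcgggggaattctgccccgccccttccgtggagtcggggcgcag
CCAAT, the NF-Y box, was searched on both strands and was present in 6 of 6 windows, against 34.0% of 33469 promoter windows of the same length. All of the matches in these 4 genes were in the ATTGG orientation. Hmgcs1 had them 188 and 133 bases before the start, Insig1 193, Idi1 66 and 35, and Srebf2 129. The 2 matches of Scd2 were in the CCAAT orientation, 97 and 54 bases before the start. GGGCGG, a GC box, was present on either strand in 4 of 6 windows (Hmgcs1, Insig1, Srebf2 and Lss), against 30.5% of all windows. The E-box CACGTG was present in the Insig1 window alone of the 6, 79 bases before the start, against 5.59% of all windows. TCACNCCAC, a form of the sterol regulatory element, was in 0 of 6 windows and in 0.974% of all windows, which says only that these letters are not in these windows. The GC content of the windows was 63.2% for Hmgcs1, 72.8% for Insig1, 52.8% for Idi1 and 68.4% for Srebf2, against a mean of 52.3% over all windows. The motifs were chosen after the windows had been seen, and a match is a description of sequence only. The RefSeq start equals the start given in the deposited table for Idi1, and for Hmgcs1, Insig1 and Srebf2 the deposited position differs from it by -2847, 43 and -533 bases, so the windows of these 3 genes need not belong to the starts behind the counts.

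The 8 genes were expressed in every library, and their spread between rats in the 147 libraries was near that of genes in general. Hmgcs1, which makes HMG-CoA at the entry of the mevalonate pathway, lay between 122 and 317 CPM with a median of 194. Its SD on the log2 scale was 0.26, the median over all tested genes being 0.24. Idi1, the isomerase that interconverts the C5 isoprenoid units, ran from 12.6 through a median of 20.4 to 34.3 CPM (SD 0.28). Fdft1, squalene synthase and the step that commits isoprenoids to sterols, had 52.8 CPM at its lowest, 71.8 at its median and 108 at its highest (SD 0.21).

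Sqle, squalene epoxidase, which carries out the first oxygenation of the pathway, ranged from 31.3 to 69.7 CPM around a median of 46.3 (SD 0.19). Lss, which closes the ring system of lanosterol, had a lowest value of 19.8, a median of 37.9 and a highest value of 66.5 CPM (SD 0.28). The 2 controllers spread over the same range as the enzymes. Srebf2 spanned 118 to 240 CPM with a median of 166 and an SD of 0.19, and 29.7% of the genes tested had a smaller SD. Insig1 spanned 44.0 to 112 CPM with a median of 72.7 and an SD of 0.28, and 66.5% of the genes tested had a smaller SD. Scd2, a stearoyl-CoA desaturase that makes monounsaturated fatty acids, lay between 2209 and 5146 CPM with a median of 3030 (SD 0.20). Highest and lowest libraries thus differed by between 2.04-fold for Srebf2 and 3.36-fold for Lss, and none of the 8 genes approached 0 in any library.

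**Figure D1:**
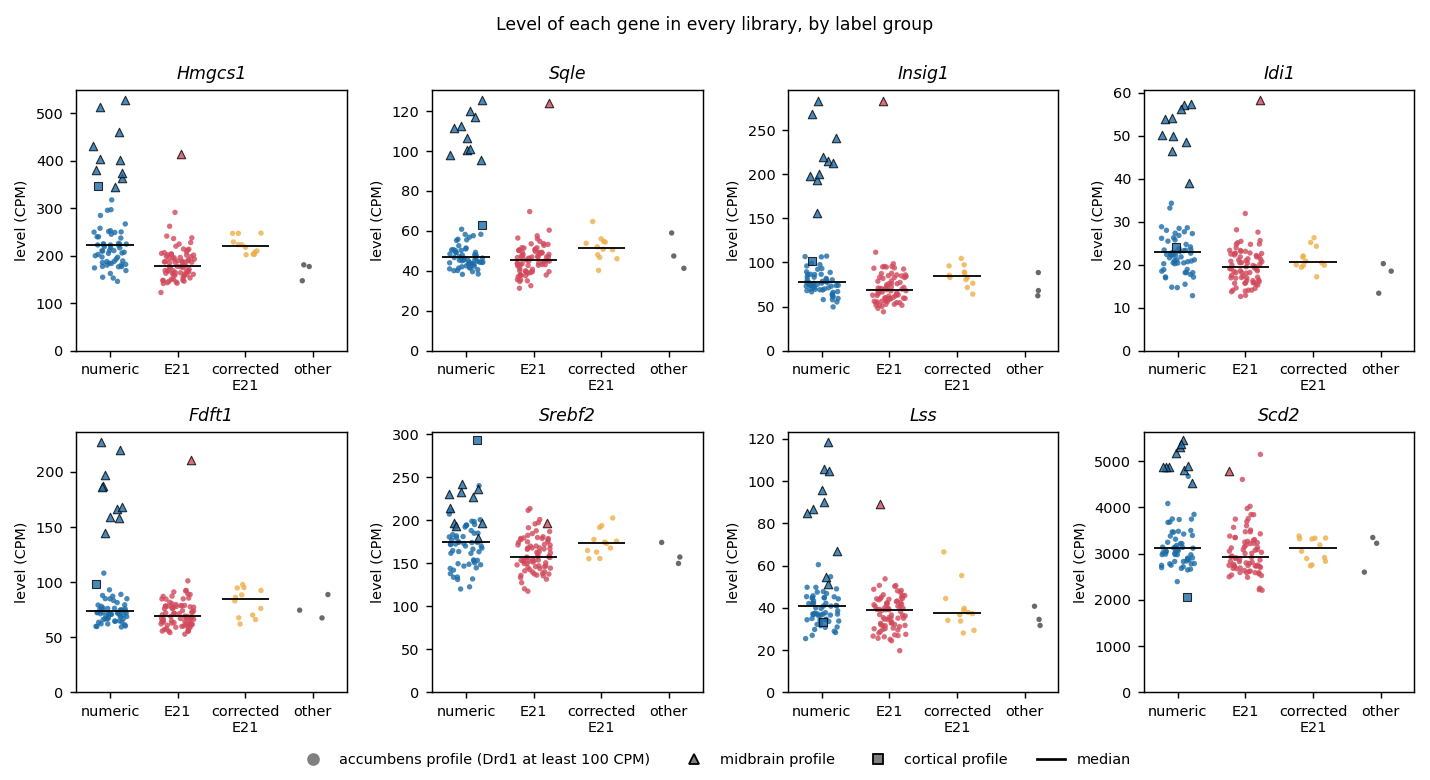
Level in CPM (vertical axes, starting at 0) of each of the 8 genes in each of the 159 libraries, by label group; circles are libraries with Drd1 of at least 100 CPM, triangles midbrain-profile libraries, squares the library of cortical profile, and lines group medians over all libraries. The triangles of Hmgcs1, Sqle, Insig1, Idi1 and Fdft1 lie above every circle, while those of Srebf2, Lss and Scd2 overlap the circles.

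In the 11 midbrain-profile libraries 5 of the 8 genes lay above every one of the 147 others, and 0 lay below. Over all genes tested, 6.00% lay wholly above and 6.57% wholly below. Since the profiles were read from the data, these values are a description with no test. Hmgcs1 was 344 to 528 CPM there with a median of 403, so that its lowest value exceeded the 317 CPM of the highest library with accumbens profile. Sqle, at 95.5 to 126 CPM, and Insig1, at 156 to 284 CPM, were likewise clear of the highest accumbens values of 69.7 and 112 CPM. Idi1 lay at 39.1 to 58.3 CPM and Fdft1 at 144 to 227 CPM. The other 3 genes overlapped. Srebf2 was at 180 to 242 CPM, Lss at 51.2 to 118 CPM and Scd2 at 4532 to 5460 CPM.

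Of the 21 sterol synthesis genes examined as a wider list, 13 lay wholly above in the midbrain-profile libraries and 0 below. Beside the members they included Acat2, Mvk, Pmvk, Mvd, Fdps, Cyp51, Nsdhl and Sc5d. The fatty acid list had 5 of 14 above: Acly, Me1, Elovl5, Elovl7 and Scd. These genes are named because their values did not overlap. Insig1 was the 1 gene above among the 7 SREBP control genes. The summed level of 10 oligodendrocyte markers was 25519 to 35302 CPM in these libraries and overlapped the 10419 to 39835 CPM of the 147 others, with medians of 31186 and 17386 CPM. Mbp itself had medians of 15083 and 7584 CPM. The summed level of 8 medium spiny neuron markers was 312 to 514 CPM against 2896 to 7224 CPM, and that of 5 meningeal fibroblast markers 29.3 to 526 CPM against 12.4 to 92.5 CPM. The part of these cell types in the differences was not tested. In a bulk sample, fewer cells of a type and less RNA per cell cannot be told apart. The library of cortical profile had Hmgcs1 at 346, Srebf2 at 294 and Sqle at 63.1 CPM, and Scd2 at 2070 CPM, below the 2209 CPM of the lowest of the 147 libraries.

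Across the 147 libraries the sterol enzymes and Insig1 varied together, and Srebf2 had the lowest r with them. Of the 28 pairs, 26 had a positive correlation of log2 levels with an adjusted p under 0.05 and 0 a negative one (permutation with 100000 resamples, two-sided, Benjamini-Hochberg over the 28 pairs). The median r was 0.43, and the range was from -0.02 to 0.81. Correlation is common in this table: over 118988451 pairs of tested genes the median r was 0.03, and 29.1% of pairs reached 0.19, the smallest r called among the members. An r of at least 0.5 was reached by 10 of the 28 pairs and by 7.21% of all pairs.

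The closest pair was Hmgcs1 with Insig1, at r = 0.81 (Spearman rho 0.82, adjusted permutation p = 1.75e-05). This is the smallest adjusted value the resamples could give here, and without the 2 libraries farthest from the median of Hmgcs1 r was 0.81. Sqle, Insig1 and Fdft1 formed a close trio, with r of 0.79 for Sqle with Insig1, 0.79 for Insig1 with Fdft1 and 0.78 for Sqle with Fdft1. Idi1 was nearest to Hmgcs1, at 0.74, followed by Insig1 at 0.61, and its r with Fdft1 was 0.32. Scd2, the fatty acid gene, had r of 0.60 with Hmgcs1 and 0.56 with Insig1, but 0.28 with Fdft1 and 0.31 with Sqle. Lss ranged from 0.14 with Srebf2 to 0.45 with Hmgcs1. The r of Srebf2 with the other genes ran from -0.02 for Scd2 to 0.44 for Hmgcs1. The pairs that did not pass were Srebf2 with Lss (r = 0.14, rho 0.14, adjusted permutation p = 0.0887) and Srebf2 with Scd2 (r = -0.02, rho 0.04, adjusted permutation p = 0.7996).

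Within the label groups, 25 of 28 pairs were called positive among the 56 numeric-label libraries and 18 among the 76 E21-label libraries, where 1 was called negative. At the smallest size called in each group, 0.27 in the numeric and 0.26 in the E21 libraries, 16.9% and 26.6% of all gene pairs were positive, and 21.5% of all pairs were negative in the E21 libraries. Hmgcs1 with Insig1 had r = 0.90 in the numeric and 0.75 in the E21 libraries. Srebf2 with Scd2 had r = 0.41 in the numeric and -0.39 in the E21 libraries, so that its value near 0 over all libraries joined opposite relations. The difference between label groups was tested for each of the 28 pairs by permuting the labels. It passed for these 2 pairs. The difference (E21 minus numeric) was -0.16 for Hmgcs1 with Insig1 (adjusted permutation p = 0.0319) and -0.80 for Srebf2 with Scd2 (adjusted permutation p = 0.00084). The share of all gene pairs that differed between the label groups was not computed.

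**Figure D2:**
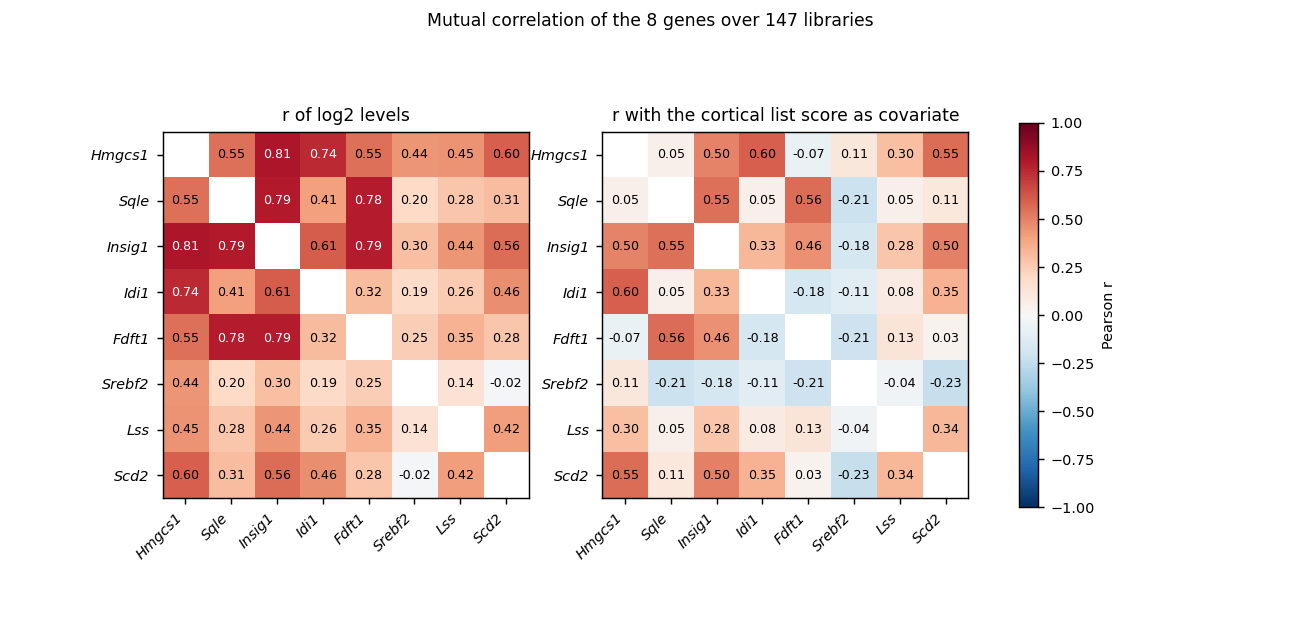
Pearson r between log2(CPM + 1) of each pair of the 8 genes over 147 libraries (colour scale from -1 to 1), at left as measured and at right with the score of the cortical neuron list as covariate. The block of Sqle, Insig1 and Fdft1 at 0.78 to 0.79 and the pale row of Srebf2 stand out at left, and 12 pairs are called positive at right against 26 at left.

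Several lists of cell type markers moved with the genes. For Hmgcs1, Sqle, Insig1, Idi1, Fdft1 and Srebf2 the r of largest size was that with the cortical projection neuron list. A list score is the mean of the standardised log2 levels of its genes in a library. The 10 lists and the total count gave 88 relations with the 8 genes, adjusted together. The summed level of the 6 cortical genes, among them Slc17a7, Tbr1, Neurod2, Neurod6 and Emx1, ran from 2.77 to 1389 CPM over the 147 libraries, with 2 of the 6 at 0 in some library. The r with the cortical score was 0.81 for Insig1, 0.77 for Hmgcs1, 0.75 for Fdft1, 0.69 for Sqle and 0.55 for Idi1, with the same adjusted permutation p of 3.14e-05 for each. Their rho values were 0.81, 0.78, 0.75, 0.71 and 0.55. It was lower for Srebf2, at 0.49 (rho 0.53), for Lss, at 0.35 (rho 0.37), and for Scd2, at 0.34 (rho 0.38). Insig1 had r = 0.82 with this score in the numeric and 0.76 in the E21 libraries, and without the 2 farthest libraries r was 0.82. The medium spiny neuron score had a negative r with each of the 8 genes, from -0.23 for Srebf2 to -0.70 for Insig1. Its r with the cortical score was -0.64. Shares over all genes were not computed for the list scores. For Lss the r of -0.43 with the medium spiny neuron score and of 0.40 with newly formed oligodendrocytes were larger in size than that with the cortical score.

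Scd2 had its highest r with glial and vascular lists. It was 0.76 with the astrocyte score (rho 0.68), 0.74 with newly formed oligodendrocytes (rho 0.66) and 0.71 with endothelial cells (rho 0.61). Oligodendrocyte precursors followed at 0.58 (rho 0.42), mature oligodendrocytes at 0.57 (rho 0.51) and microglia at 0.55 (rho 0.39). The adjusted permutation p was 3.14e-05 for each of these. For Sqle and Fdft1 the r with the astrocyte score was 0.15 and 0.12, neither of which passed, and the difference from Scd2 was not tested. Srebf2 had a negative r of -0.45 with microglia (rho -0.48, adjusted permutation p = 3.14e-05), of -0.28 with astrocytes (rho -0.25, adjusted permutation p = 0.00157) and of -0.21 with oligodendrocytes (adjusted permutation p = 0.0198). In the E21 libraries the r with microglia and astrocytes were -0.63 and -0.59, and in the numeric libraries -0.19 and 0.10, a difference that was not tested. Depth moved with some genes: r with the log2 total count was 0.29 for Hmgcs1, 0.26 for Srebf2 and 0.22 for Idi1, but -0.07 for Hmgcs1 within the E21 libraries and 0.31 within the numeric ones.

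**Figure D3:**
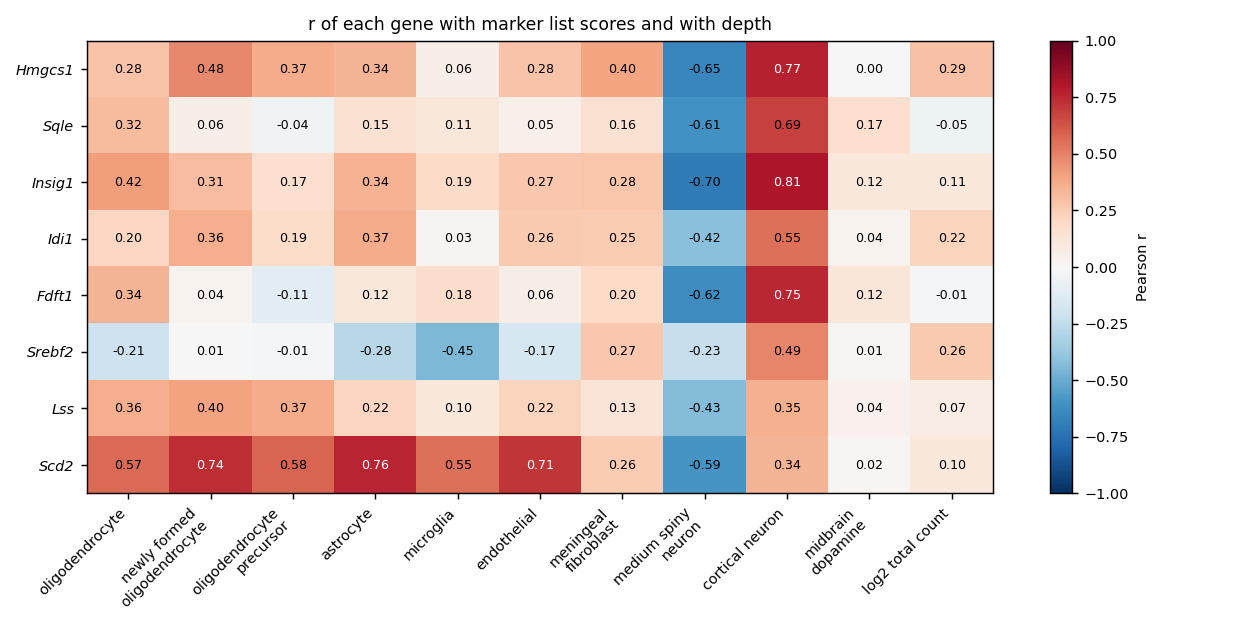
Pearson r over 147 libraries between log2(CPM + 1) of each of the 8 genes (vertical) and the score of each of 10 marker lists or the log2 total count (horizontal). The cortical column is the darkest red for Hmgcs1, Sqle, Insig1, Idi1, Fdft1 and Srebf2, while Scd2 is highest with astrocyte and newly formed oligodendrocyte scores, at 0.76 and 0.74.

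With the cortical score as a covariate, 12 of the 28 pairs were called positive and 3 negative, and the median r was 0.11. At the smallest size called there, 0.21, 27.4% of all gene pairs were positive and 21.8% negative. The pairs with the highest r were then Hmgcs1 with Idi1 at 0.60, Sqle with Fdft1 at 0.56, Hmgcs1 with Scd2 at 0.55, Sqle with Insig1 at 0.55 and Insig1 with Scd2 at 0.50. Hmgcs1 with Fdft1 went from 0.55 to -0.07. The 3 negative pairs all included Srebf2, with Sqle at -0.21, Fdft1 at -0.21 and Scd2 at -0.23. An r of at least 0.5 was reached by 5 of the 28 pairs, against 7.66% of all gene pairs. With the oligodendrocyte score as a covariate instead, 26 pairs were called positive and the median r was 0.38. At the smallest size called there, 0.17, 31.5% of all gene pairs were positive.

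With CPM scaling, the relation to Mbp was positive for 7 of the 8 genes and negative for Srebf2. After quantile normalization 2 of these 7, Lss and Scd2, kept a positive relation that passed, and Srebf2 a negative one. Mbp lay between 4499 and 19356 CPM in the 147 libraries with a median of 7584. The slope of each gene on Mbp, in log2 units per log2 unit, was tested with limma over all genes, with Benjamini-Hochberg adjustment. All 8 genes passed, but so did 68.4% of the 15426 genes, 36.5% with a higher and 31.9% with a lower level at high Mbp. Scd2 had the steepest slope of the 8, at 0.32 (SE 0.03, limma adjusted p = 1.2e-16). Insig1 followed at 0.30 (SE 0.05, limma adjusted p = 5.89e-08), then Fdft1 at 0.21 (SE 0.04), Lss at 0.20 (SE 0.05), Sqle at 0.17 (SE 0.04), Hmgcs1 at 0.14 (SE 0.05) and Idi1 at 0.14 (SE 0.06, limma adjusted p = 0.0216). Srebf2 had a slope of -0.17 (SE 0.04, limma adjusted p = 2.67e-05).

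As correlations, Scd2 had r = 0.64 with Mbp (rho 0.60) and r = 0.60 without the 2 libraries farthest from the median of Mbp. The next were Insig1 at 0.44 (rho 0.43), Fdft1 at 0.41 (rho 0.43), Sqle at 0.35 (rho 0.35) and Lss at 0.29 (rho 0.29). Hmgcs1, at 0.23 (rho 0.23), and Idi1, at 0.20 (rho 0.22, adjusted permutation p = 0.0149 over 8 relations), were the weakest. Srebf2 had r = -0.35 (rho -0.36) and r = -0.35 without the 2 farthest libraries. Within the E21 libraries r was 0.78 for Scd2 and -0.54 for Srebf2, and within the numeric libraries 0.46 and -0.04. In the E21 libraries alone 7 members had a positive and 1 a negative slope that passed, against 33.8% and 28.2% of all genes. In the numeric libraries alone 5 had a positive and 0 a negative one in limma, against 20.7% and 18.9% of all genes. The slope of Srebf2 in the numeric libraries alone was -0.03 (SE 0.09, limma adjusted p = 0.851). The difference in slope between the label groups, fitted as an interaction, passed for 0 of the 8 genes and for 0 of 15426 genes at an adjusted p of 0.05 in limma. At an unadjusted p under 0.05 it passed for 0 of the 8 and for 1848 genes. For Srebf2 the difference was -0.18 (SE 0.09, limma adjusted p = 0.435). The E21 libraries held the widest Mbp range, from 4499 to 19356 CPM, against 4593 to 11538 CPM in the numeric libraries.

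**Figure D4:**
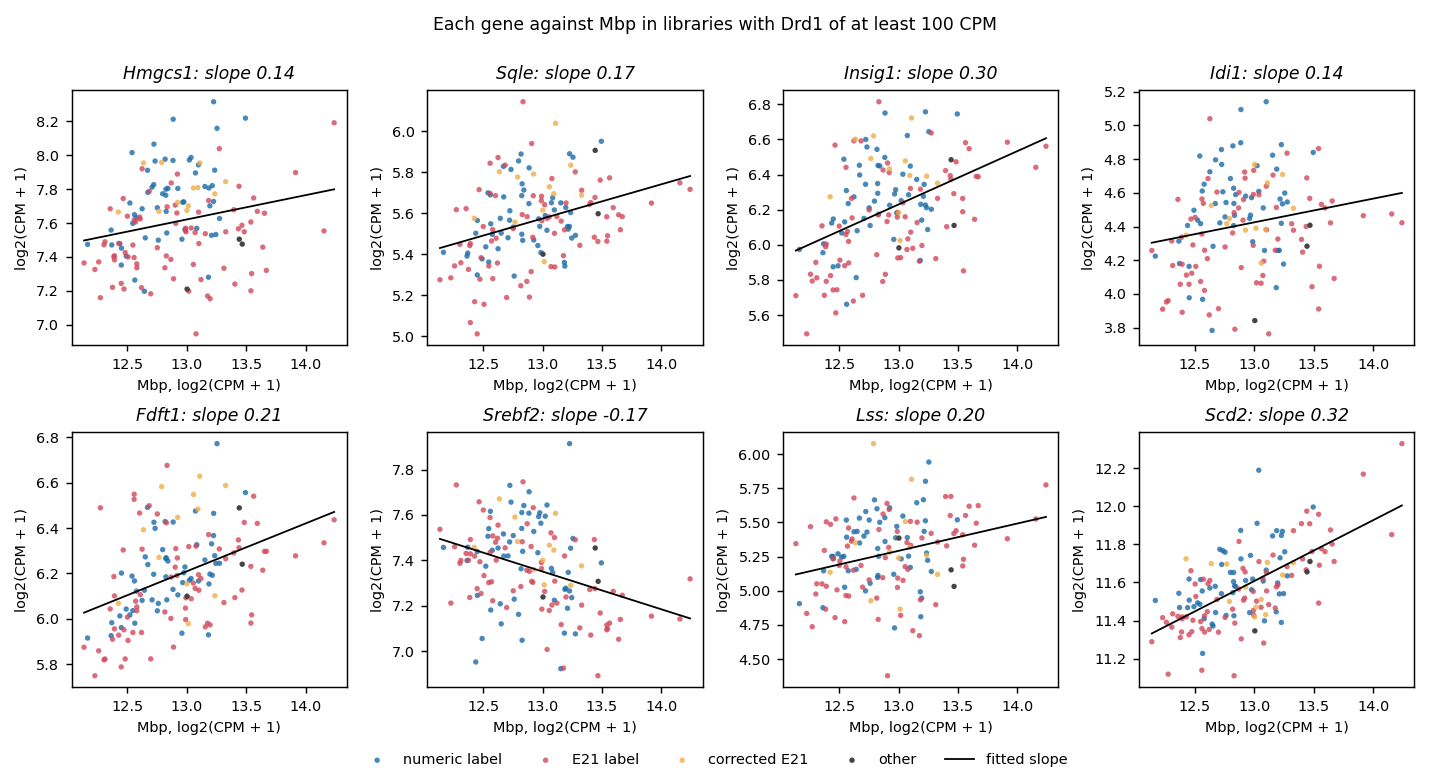
Log2(CPM + 1) of each of the 8 genes (vertical) against log2(CPM + 1) of Mbp (horizontal) in 147 libraries, coloured by label group, with the fitted slope as a line; axes do not start at 0. Scd2 has the tightest rise (slope 0.32) and Srebf2 is the panel with a falling line (slope -0.17).

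In the wider pathway lists most sterol synthesis genes were higher at high Mbp with CPM scaling, a direction that quantile normalization did not keep. Of 21 sterol synthesis genes, 17 had a positive slope on Mbp that passed, 1 a negative one, and 3 did not pass. The median slope of the list was 0.20, against 0.02 over all genes. After quantile normalization 1 had a positive slope that passed, 2 a negative one and 18 did not pass, and the median was -0.09. The 4 with the smallest p were Msmo1, a methylsterol oxidase, at 0.40 (SE 0.04), Pmvk, phosphomevalonate kinase, at 0.35 (SE 0.04), Mvk, mevalonate kinase, at 0.29 (SE 0.03), and Cyp51, lanosterol demethylase, at 0.31 (SE 0.04). Hsd17b7 was the 1 with a negative slope, at -0.10. Sc5d, at 0.05, was among those that did not pass. Hsd17b7 and Sc5d fall outside the rule for names.

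Among 7 SREBP control genes, 2 had a positive and 3 a negative slope that passed, shares that lay near those of all genes, as did those of the uptake and export lists. Srebf1, the gene of SREBP1, which is best known for control of fatty acid synthesis, had 0.31 (SE 0.04, limma adjusted p = 9.24e-14), opposite in sign to Srebf2. Mbtps2, the membrane protease that makes the last cut of SREBP, had -0.33 (SE 0.04, limma adjusted p = 2.04e-13). Of 14 fatty acid genes 9 were positive and 3 negative, and 5 and 0 after quantile normalization. Elovl1, an elongase of very long chain fatty acids, had the highest slope of the list at 0.65 (SE 0.04). Elovl7 had 0.40 (SE 0.03) and the desaturase gene Fads1 0.36 (SE 0.04). Of the 6 uptake genes 3 were positive and 2 negative. Npc2, the lysosomal sterol carrier, had 0.54 (SE 0.04), Npc1, its membrane partner, 0.25 (SE 0.04), Scarb1, the HDL receptor, 0.16 (SE 0.03) and Lrp1, an apolipoprotein receptor, -0.27 (SE 0.05). Of the 9 export genes 3 were positive and 3 negative. Apoe, the main apolipoprotein of brain, had 0.44 (SE 0.04), the liver X receptor genes Nr1h2 and Nr1h3 0.40 (SE 0.03) and 0.32 (SE 0.05), and the sterol transporter gene Abcg1 -0.19 (SE 0.03).

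Markers of several cell types moved with Mbp. All 9 of the other oligodendrocyte markers, 7 of 7 astrocyte, 6 of 6 microglial and 4 of 5 endothelial markers had a positive slope that passed, and 6 of 8 medium spiny neuron markers a negative one. In the numeric libraries alone a positive slope passed for 9 oligodendrocyte, 3 astrocyte, 5 microglial and 2 endothelial markers. After quantile normalization it passed for 6 oligodendrocyte and 2 astrocyte markers, for 0 of the microglial and endothelial ones, each of which had 1 negative, and for 1 of the 8 medium spiny neuron markers, with 0 negative. Of the 6 cortical markers 1 passed, with a positive slope, and the list median was 0.44. With the cortical score as a covariate, 6 of the 8 genes had a positive slope that passed and Srebf2 a negative one, against 36.7% of all genes with a positive and 32.4% with a negative one. The slope was then 0.30 for Scd2, 0.23 for Insig1, 0.08 for Hmgcs1, 0.09 for Idi1 (limma adjusted p = 0.0923) and -0.20 for Srebf2. With astrocyte, cortical and meningeal scores and depth as covariates together, Hmgcs1 had a slope of 0.02 and Idi1 of -0.02, neither of which passed, and Scd2 a slope of 0.15 (limma adjusted p = 3.53e-06). With quantile-normalised values 2 of the 8 genes, Lss and Scd2, had a positive slope that passed, and Srebf2 a negative one, at -0.20 (limma adjusted p = 0.00263), against 19.8% of all genes with a positive and 17.2% with a negative one. Quantile normalization gives every library the same set of values, and under it the SD of Mbp was 0.27 on the log2 scale, against 0.40 without it.

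**Figure D5:**
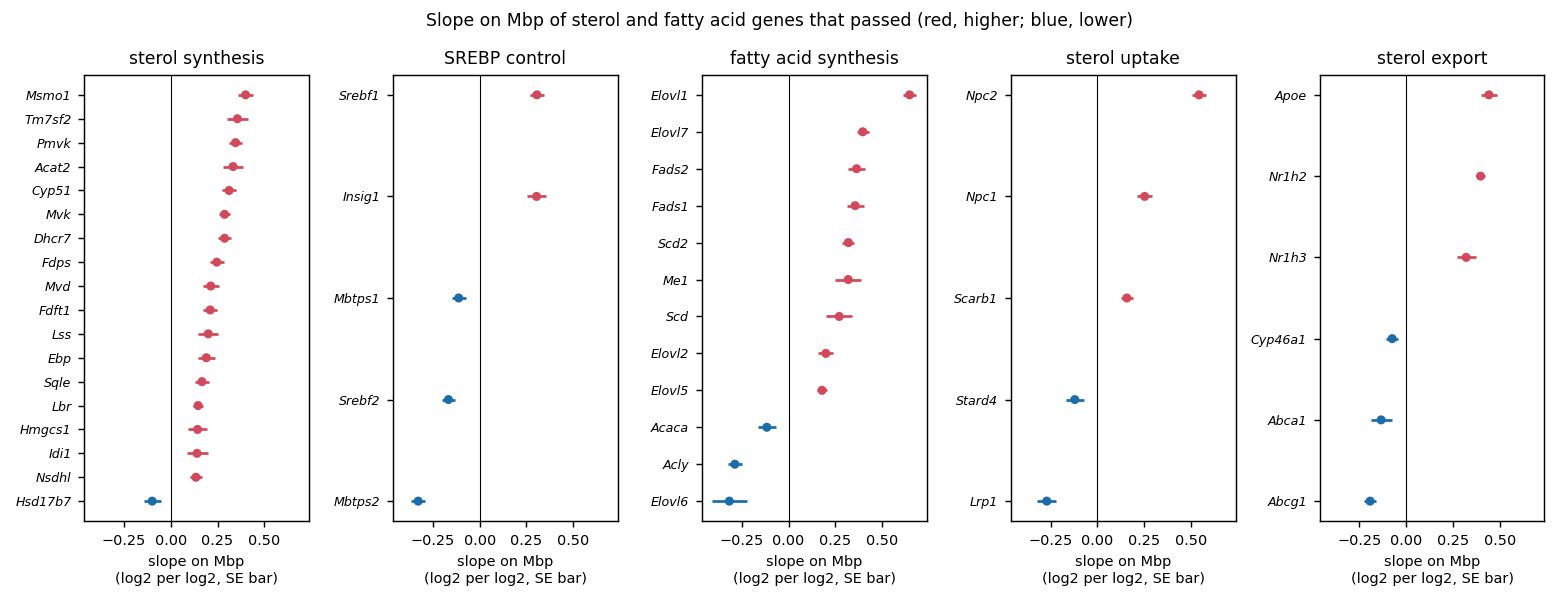
Slope on Mbp (log2 per log2, horizontal; bars are SE) over 147 libraries for the genes of the sterol synthesis, SREBP control, fatty acid synthesis, sterol uptake and sterol export lists that passed at a limma adjusted p of 0.05; red, higher and blue, lower at high Mbp, while genes that did not pass are not drawn. In the sterol synthesis panel 17 points are red and 1 is blue (after quantile normalization, not drawn, 1 was higher and 2 lower), and in the SREBP control panel Srebf1 and Insig1 are red and Srebf2, Mbtps1 and Mbtps2 blue.

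Between the label groups, all 8 genes had a lower level under the E21 label (77 libraries) than under the numeric label (67 libraries) when every library was used. In limma over 15427 genes, 30.3% were called lower and 17.4% higher. Of the genes called, 36.5% were higher. This share was 50.9% under median-of-ratios scaling and 52.98% under quantile normalization. Of the 15427 genes, 3583 were called lower under median-of-ratios scaling, 7 of the 8 members among them. Under quantile normalization 3502 genes were called lower, all 8 members among them. The log2 difference (E21 minus numeric) was -0.37 for Hmgcs1 (SE 0.06, limma adjusted p = 1.58e-07), -0.34 for Insig1, -0.34 for Idi1, -0.23 for Fdft1, -0.22 for Sqle, -0.22 for Lss, -0.14 for Scd2 and -0.13 for Srebf2. The numeric group holds 10 of the 11 midbrain-profile libraries, however. Among libraries with Drd1 of at least 100 CPM, 3 of the 8 genes were called lower and 0 higher, against 25.9% and 11.7% of all genes. Hmgcs1 had medians of 178 CPM in 76 E21 and 210 CPM in 56 numeric libraries, with ranges of 122 to 291 and 146 to 317 CPM, and a difference of -0.22 (SE 0.04, limma adjusted p = 7.65e-06). Idi1 had medians of 19.3 and 22.2 CPM and a difference of -0.18 (SE 0.05, limma adjusted p = 0.00151). Insig1 had medians of 68.4 and 75.1 CPM and a difference of -0.14 (SE 0.05, limma adjusted p = 0.0137). The ranges overlapped for all 3 genes.

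The other 5 genes differed by between -0.05 for Fdft1 and -0.08 for Lss among these libraries and did not pass. In the wider lists 8 of 21 sterol synthesis genes were then called lower and 2 higher, and 7 of 14 fatty acid genes lower and 1 higher. Cyp51, which was among the sterol genes of smallest p in the comparison of all libraries, was at -0.18 here. Acly, ATP citrate lyase, which supplies cytosolic acetyl-CoA, was at -0.19, and Acaca, acetyl-CoA carboxylase, at -0.21. Stard4, a sterol carrier, was at -0.17. Cyp46a1, the neuronal cholesterol hydroxylase, was higher, at 0.12. All 6 cortical markers were lower in the E21 libraries, with a list median of -1.01, and the summed level of the list had a median of 110 CPM there and 313 CPM in the numeric libraries. When the cortical score was a covariate, 31.2% of all genes were called lower and 12.2% higher. Hmgcs1 remained lower, at -0.09 (SE 0.03, limma adjusted p = 0.0151), Fdft1 was called higher, at 0.07 (SE 0.03, limma adjusted p = 0.0127), and the other 6 did not pass. Of the 21 sterol synthesis genes 6 were then called higher and 4 lower, with a list median of 0.05, and of the 14 fatty acid genes 1 higher and 5 lower.

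The 12 corrected E21 libraries had higher Hmgcs1 than the 77 E21 libraries, by 0.28 on the log2 scale (SE 0.08, limma adjusted p = 0.0170), and this was the 1 member called. Over all genes 4.27% were called higher and 0.856% lower. The higher genes made up 83.3% of those called, and 62.1% under median-of-ratios scaling or 61.8% after quantile normalization. The corrected libraries ran from 202 to 247 CPM with a median of 220, within the E21 range. The E21 libraries serve in both label comparisons, which therefore share samples. Without the midbrain-profile library of the E21 group 3 members were called higher and 0 lower, against 6.32% and 1.88% of genes: Hmgcs1 at 0.29 (SE 0.07), Insig1 at 0.29 (SE 0.09) and Fdft1 at 0.20 (SE 0.07). The medians of Insig1 were then 84.3 and 68.4 CPM and those of Fdft1 84.6 and 69.1 CPM, and all ranges overlapped. With all libraries 3 of 21 sterol synthesis genes, Hmgcs1 among them, were called higher, and 1 of 14 fatty acid genes, Acaca at 0.27. All 6 cortical markers were higher in the corrected libraries, with a list median of 1.57. When the cortical score was a covariate, 0 of the 8 genes were called in limma (1 of 8 at an unadjusted p under 0.05), and Hmgcs1 had a difference of 0.12 (SE 0.05, limma adjusted p = 0.110).

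The genes most like the members over the 147 libraries were named by rank alone. Likeness was measured as Pearson r, over 10216 genes outside the 8. Their mean level reached 10 CPM and their symbol was not made from a locus number. For the mean of the 8 standardised levels the nearest genes were Osbpl1a, an oxysterol-binding protein gene, at r = 0.89, Stac2 at 0.86, Satb1 at 0.85, Ntng2 at 0.85, Sox5 at 0.84, Mfsd4a at 0.84, Septin9 at 0.84, Rph3a at 0.84, Tspan17 at 0.84, Tgfb2 at 0.84, Sidt1 at 0.83 and Tbr1 at 0.83. The r of these 12 genes with the cortical score lay between 0.71 for Tgfb2 and 0.99 for Tbr1, which is itself 1 of the 6 genes of that score. Their r with the oligodendrocyte score lay between 0.04 for Mfsd4a and 0.41 for Osbpl1a.

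Fdft1 was nearest to Acat2, which makes acetoacetyl-CoA for the same pathway, at r = 0.89, then Stmn1 at 0.85 and Nbl1 at 0.84. Acat2 was also the nearest gene of Sqle, at 0.79, followed by Stmn1 and Stmn2, and for Insig1 it came after Osbpl1a and Stac2, at 0.84. Hmgcs1 had Sox5, Osbpl1a and Satb1, each at 0.85. Idi1 had Zfp367 at 0.73, Pdha1 at 0.72 and Ubxn2a at 0.70. Lss had the loosest neighbours, Adcy6 at 0.59, Galnt2 at 0.56 and Kcna6 at 0.55. Srebf2 was nearest to Dnm1, the gene of the neuronal dynamin, at 0.79, Nrxn2, a presynaptic adhesion gene, at 0.78 and Fbxw7 at 0.77. Dnm1 had r = -0.46 with the oligodendrocyte score and 0.41 with the cortical score. Scd2 was nearest to Kcnj10, the potassium channel gene of astrocytes and oligodendrocytes, at 0.86, Fermt2 at 0.84 and Tns3 at 0.84, whose r with the cortical score was 0.25, 0.21 and 0.05.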

How the data were processed

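PolyA RNA of the nucleus accumbens core was measured by sequencing. The submitters' processing notes name kallisto 0.48 for quantification. Annotation and genome build: not given in the sources used here. As deposited, each value is the log2 of a kallisto-type expected count with 1 added, unscaled for library size. The header states no unit, and this one was inferred from the values. Of 192 labels, 33 name libraries that the labels mark as removed, and these were not analysed here.

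For this work the log2 was undone and the counts were scaled to 1000000 per library and transformed as log2(CPM + 1). Fold changes are on this scale, which understates changes of low genes. The counts are estimates, so genes with near-identical copies or overlapping neighbours can share reads. Pairs, marker lists and Mbp were analysed in the 147 libraries with Drd1 of at least 100 CPM. Correlations had two-sided permutation p-values from 100000 resamples, whose smallest value is 1e-05, and Benjamini-Hochberg adjustment within families of 28, 88 and 8 relations. Slopes and label groups were fitted with limma 3.58.1 (intensity trend, R 4.3.3) over all tested genes, at an adjusted p of 0.05. Scripts ran under Python 3.11.15 (scipy 1.17.1, numpy 2.4.6, matplotlib 3.10.9 and pandas 2.3.3), and the fits were tested on simulated data. The members, gene lists and marker lists were chosen with earlier results of these data known. By rule, the 4 genes of smallest p in each pathway list, the 3 genes nearest to each member and the 12 nearest to their mean are named; others are named where a count is completed. Covariates in a correlation were removed by regression from both genes. Alternatives were other scalings, pseudocount 0.5, no low-value filter, label groups alone and marker scores as covariates. A few genes named by this rule are left out of the text.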

Additional observations from a re-analysis of the deposited data

Results flagged for a closer look

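The r of 2 gene pairs differed between the label groups, among libraries with Drd1 of at least 100 CPM. The test permuted the labels (28 pairs tested, Benjamini-Hochberg adjusted), and the share over all gene pairs was not computed. Srebf2 with Scd2 had r = -0.385 in the 76 E21 libraries and 0.413 in the 56 numeric libraries, a difference of -0.799 (E21 minus numeric, adjusted permutation p = 0.00084). Without the 2 libraries of each group farthest from the median of Srebf2 the values were -0.336 and 0.497. In the E21 libraries Srebf2 also had r of -0.588 with the astrocyte score, with which Scd2 had r of 0.813, and in the numeric libraries these were 0.101 and 0.692. The part of these lists in the difference was not tested. Hmgcs1 with Insig1 had r = 0.748 in the E21 and 0.904 in the numeric libraries, a difference of -0.156 (adjusted permutation p = 0.0319), so that both groups had the same sign. Without the 2 farthest libraries of each group the values were 0.731 and 0.887.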

How the results depend on the processing

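The cortical list score as covariate was added after seeing the data. No paired analysis was possible because the libraries carry no shared replicate numbers. The labels give no batch, so label group and any batch cannot be told apart. In every case below the cause was not tested. Median-of-ratios scaling, pseudocount 0.5 and the absence of a low-value filter changed none of the counts of members called by over 1.5 times. Over all genes, the 10550 called on Mbp became 5704 with quantile normalization, 6108 in the numeric libraries and 6286 with the oligodendrocyte score in place of Mbp. The 791 called between corrected E21 and E21 labels became 1265 among libraries with Drd1 of at least 100 CPM, 7 with 4 marker scores and 139 with the cortical score as covariate. The 0 genes with a slope difference in limma (1848 at an unadjusted p under 0.05) became 9 under median-of-ratios scaling and 432 after quantile normalization, none of them members.

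For pairs, 12 were called positive and 1 negative with astrocyte, cortical and meningeal scores and depth as covariates. The share over all gene pairs was not computed for these 4 covariates. With the cortical score 12 were positive and 3 negative, and 1 was negative in the E21 libraries alone. With the 4 covariates r was -0.0447 for Hmgcs1 with Fdft1, -0.126 for Sqle with Srebf2, -0.188 for Idi1 with Fdft1, -0.170 for Fdft1 with Srebf2, -0.0115 for Fdft1 with Scd2 and 0.160 for Srebf2 with Scd2. With the cortical score it was -0.0690 for Hmgcs1 with Fdft1, -0.213 for Sqle with Srebf2, -0.178 for Insig1 with Srebf2, -0.178 for Idi1 with Fdft1, -0.111 for Idi1 with Srebf2, -0.209 for Fdft1 with Srebf2 and -0.0384 for Srebf2 with Lss. Idi1 with Srebf2 had r = -0.0400 in the E21 libraries. Srebf2 with Scd2, near 0 over all libraries, had r of 0.0286 with median-of-ratios scaling, 0.00506 with quantile normalization, 0.119 with the oligodendrocyte score and 0.413 in the numeric libraries, and a rho of 0.0425.

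For Mbp, quantile normalization left 2 members called higher, Lss and Scd2. The slopes of Sqle and Fdft1 were then negative, at -0.0910 and -0.126, and did not pass. In the numeric libraries 0 were called lower in limma (Srebf2 had an unadjusted p of 0.780), and with the 4 covariates the slope of Idi1 was -0.0186. The slope difference between labels for Sqle was 0.0203 with median-of-ratios scaling.

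Between E21 and numeric labels, 3 members were called lower among libraries with Drd1 of at least 100 CPM. With 4 marker scores as covariates there, 1 was lower and 1 higher, against 5163 and 1964 of 15427 genes. The differences were then 0.0381 for Sqle, 0.00899 for Insig1, 0.0615 for Fdft1 and 0.0115 for Srebf2. Given the cortical score, 1 was lower and 1 higher, with 0.0503 for Sqle, 0.0283 for Insig1, 0.0735 for Fdft1 and 0.00255 for Scd2. Between corrected E21 and E21 labels, 3 were called higher among libraries with Drd1 of at least 100 CPM. With the 4 scores 0 were called in limma (1 at an unadjusted p under 0.05), with -0.0106 for Fdft1 and -0.0177 for Lss. Given the cortical score, 0 were called (1 unadjusted), with -0.00126 for Fdft1, -0.0176 for Lss and -0.0376 for Scd2. Median-of-ratios scaling gave -0.0109 for Scd2.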
